A study of Arabidopsis thaliana with 6 samples.

Results

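The aquaporin genes of Arabidopsis thaliana code for membrane channels that carry water and, in some members, small uncharged molecules such as boric acid, ammonia, arsenite or hydrogen peroxide. They were chosen by locus as the 35 annotated members of the family, out of 27827 probe sets on the array, and all 35 had a probe set. They fall into 13 plasma membrane intrinsic proteins (PIP), 10 tonoplast intrinsic proteins (TIP), 9 NOD26-like intrinsic proteins (NIP) and 3 small basic intrinsic proteins (SIP). In this report a gene carries its RefSeq symbol or a RefSeq synonym together with its locus, and the systematic name (subfamily and group number, then member number) is shown beside it in the plots. The comparison used 6 arrays, 3 of *naa20* and 3 of wildtype seedlings. *naa20* is 1 T-DNA insertion line, naa20-1 in the Col-0 background, with the insertion in the gene for the catalytic subunit of NatB, the complex that acetylates the N termini of proteins. Seedlings of both genotypes were 17 days old and whole, had been moved on day 2 to medium with 2 mM dithiothreitol (DTT), a reducing agent that disturbs protein folding in the endoplasmic reticulum, and had stayed on it for 15 days in short days with 8.5 h of light. The labels describe each sample as a pool of at least 10 seedlings, while a legend of the study speaks of individual plants, and its methods let *naa20* seeds germinate on control medium before long treatments, so the start of DTT may differ between the genotypes. Both groups carried the treatment, so every difference below is one between genotypes on DTT, and arrays without DTT were not analysed here.

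Aquaporins assemble as tetramers in which each subunit forms its own pore. The PIPs sit in the plasma membrane, where PIP1 subunits generally reach the membrane together with PIP2 subunits, and they set much of the water permeability of root and leaf cells. The TIPs sit in the tonoplast, the membrane of the vacuole, and help the large central vacuole to exchange water with the cytosol. NIPs are known mostly for the transport of metalloids, and SIPs are found in the endoplasmic reticulum. NatB acts on N termini that begin with methionine followed by an acidic or amide residue, and PIP1 proteins of Arabidopsis begin with methionine and glutamate.

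On DTT, most PIP, TIP and NIP genes had a lower mean in *naa20* than in wildtype, and all 3 SIPs had a higher one. At a limma adjusted p under 0.05 the PIPs and TIPs that passed were all lower, while the NIPs had 3 lower and 1 higher. Of the 35 genes, 26 had a lower and 9 a higher mean, against 14035 lower and 13776 higher of all 27827 probe sets. With limma, an adjusted p under 0.05 and no limit on size, 15 aquaporins were lower (42.9%), against 17.4% of all probe sets, and 2 were higher (5.71%), against 16.6% of all probe sets. With a difference of at least 2-fold in addition, 8 were lower (22.9%), against 4.97% of all probe sets, and 1 was higher (2.86%), against 4.95%. The median log2 difference, *naa20* minus wildtype, was −0.41 over the aquaporins and −0.004 over the whole table. All *naa20* arrays lay below all wildtype arrays in 17 aquaporins (48.6%, against 24.1% of all probe sets) and above them in 3 (8.57%, against 23.4%). For these 20 genes the exact two-sided permutation test over the arrays gave p = 0.1, the smallest that 3 arrays against 3 allow. At an unadjusted p under 0.05 the count was 20 of 35 (57.1%), against 42.9% of all probe sets in either direction. When any 1 array was left out, 11 of the 15 lower and both of the higher genes passed in all 6 fits. The share of all called probe sets that did so is not given, so this count is not read against a background.

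**Figure D1:**
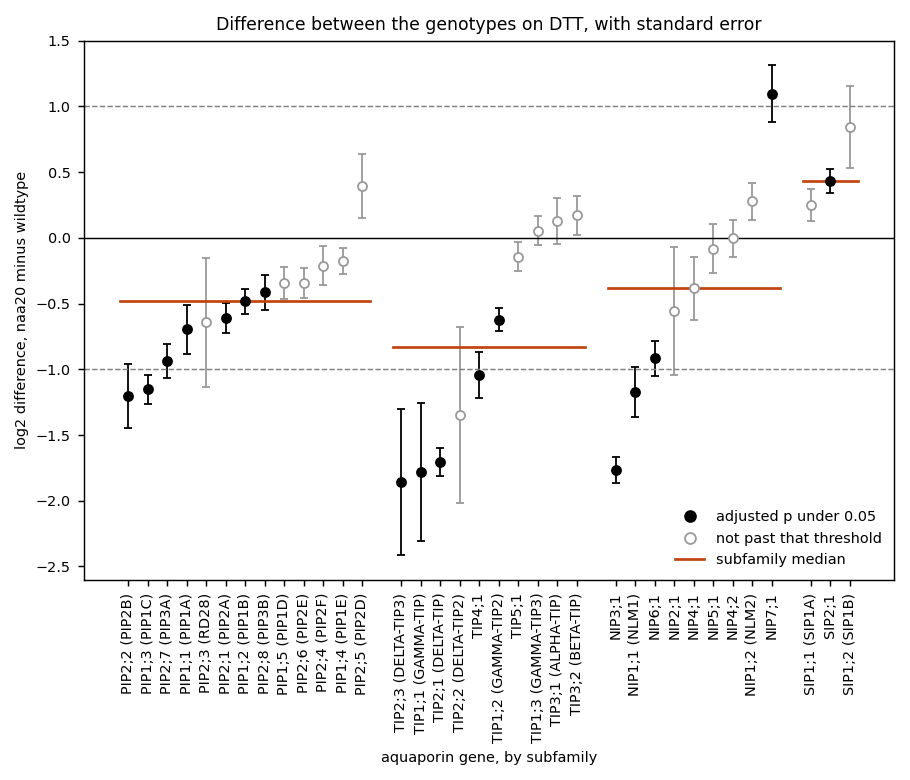
Log2 difference between *naa20* and wildtype (vertical axis) for each aquaporin gene, ordered within its subfamily. Points are differences of means over 3 arrays per genotype, bars are limma standard errors, filled points have an adjusted p under 0.05, dashed lines mark 2-fold and the coloured lines are subfamily medians of −0.48 (PIP), −0.83 (TIP), −0.39 (NIP) and 0.43 (SIP).

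The values are log2 signals, so a difference of 1 is a factor of 2. NAA20 itself (AT1G03150) read 7.44, 6.98 and 7.54 in the *naa20* arrays and 8.69, 8.56 and 8.83 in the wildtype arrays, a difference of −1.38 (limma adjusted p = 0.000689), which matches the labels. The deposited normalization gives all 6 arrays the same distribution, with a median of 6.12, so depth and detection are unknown. Beside the aquaporins, most genes on 3 lists of root cell markers and root uptake genes were lower in *naa20*. Of 22 genes, 19 passed the threshold downwards (86.4%, against 17.4% of all probe sets) and 1 upwards (4.55%, against 16.6%). The other 2, SHR and SKOR on the list of stele and uptake genes, did not pass. These values are given with the results below. In whole seedlings, fewer cells of a type and less RNA per cell cannot be told apart. The limma p-values set each difference against the spread between these samples, moderated over all probe sets. Whether that spread is one between pools or between single plants is not settled.

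Among the PIPs, 12 of 13 had a lower mean in *naa20*. The threshold was passed downwards by 7 (53.8%, against 17.4% of all probe sets) and upwards by none (against 16.6%). In 9 genes (69.2%, against 24.1% of all probe sets) all *naa20* arrays lay below all wildtype arrays. The median difference was −0.48 in the 5 PIP1 genes and −0.51 in the 8 PIP2 genes. The 2 PIP genes past 2-fold were 1 of each group.

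In the PIP1 group the gene with the greatest difference was PIP1C (AT1G01620). Its signal was 10.22, 10.40 and 10.56 in *naa20* and 11.52, 11.49 and 11.62 in wildtype. The lowest wildtype array stood above every *naa20* array, and the means of 10.39 ± 0.17 and 11.54 ± 0.07 (SD, n = 3 each) differed by −1.15 ± 0.11 (standard error), 2.22-fold (limma adjusted p = 0.000303). PIP1B (AT2G45960), a channel studied for water and CO2 transport, was lower by a smaller amount, at 8.21, 8.43 and 8.40 against 8.76, 8.84 and 8.88. Its difference was −0.48 ± 0.10 (limma adjusted p = 0.00729), again with no overlap. PIP1A (AT3G61430) read 7.12, 7.58 and 7.72 in *naa20* and 7.99, 8.08 and 8.44 in wildtype. It was lower by −0.70 ± 0.19 (limma adjusted p = 0.025), but the call depended on single arrays. Without *naa20* array 1 or 2 the adjusted p was 0.0614 or 0.0501, and without wildtype array 2 or 3 it was 0.0542 or 0.0641.

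The remaining PIP1 genes did not pass. PIP1D (AT4G23400) had no overlap, at 6.67, 7.03 and 6.79 against 7.32, 7.07 and 7.13, but its difference of −0.34 had an adjusted p of 0.0725 in limma. Without *naa20* array 2 that p was 0.0344. PIP1E (AT4G00430) had the smallest difference of the group, −0.18 with an adjusted p of 0.215, and its arrays overlapped, at 7.04, 7.07 and 7.26 in *naa20* and 7.23, 7.31 and 7.36 in wildtype.

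Among the PIP2 genes, PIP2B (AT2G37170), which contributes to root water uptake, had the lowest difference. Its arrays read 8.77, 8.69 and 9.32 in *naa20* and 9.85, 9.95 and 10.60 in wildtype. The means of 8.93 ± 0.34 and 10.13 ± 0.41 (SD, n = 3 each) differed by −1.21 ± 0.24, 2.31-fold (limma adjusted p = 0.00778). Array 3 was the highest in both genotypes, and without wildtype array 3 the difference was −0.97, short of 2-fold. PIP3A (AT4G35100) was 1.91-fold lower, at 7.36, 7.42 and 7.08 against 8.29, 8.33 and 8.05, a difference of −0.94 ± 0.13 (limma adjusted p = 0.00135). PIP2A (AT3G53420), a main water channel of roots, leaf veins and guard cells, read 7.65, 7.89 and 7.81 against 8.32, 8.29 and 8.58. It was lower by −0.61 ± 0.12 (limma adjusted p = 0.00602), and these 3 genes had no overlap between the genotypes.

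PIP3B (AT2G16850) was at the edge of the threshold. It read 4.35, 4.82 and 4.49 in *naa20* and 5.03, 4.88 and 4.98 in wildtype, a difference of −0.41 ± 0.13 with a limma adjusted p of 0.0498. In a model blocked on replicate number the adjusted p was 0.072. Leaving out *naa20* array 1 or 3 gave 0.147 or 0.119, and leaving out wildtype array 1, 2 or 3 gave 0.139, 0.0856 or 0.101. The call was lost in 5 of the 6 fits with 1 array left out.

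RD28 (AT2G37180), whose name comes from its response to desiccation, is the direct neighbour of PIP2B in RefSeq (TAIR10.1), with 0 genes between them, and closely related sequences such as these can share probe signal. It read 8.10, 8.22 and 9.31 in *naa20* and 8.59, 8.74 and 10.23 in wildtype. The genotypes overlapped because array 3 was high in both, and the difference of −0.64 ± 0.49 had a limma adjusted p of 0.373. Between arrays of equal number the differences were −0.49, −0.52 and −0.92, and in a model blocked on replicate number the adjusted p was 0.011. Without wildtype array 3 the difference was −0.12. The differences of PIP2B and RD28 differed by −0.56 (exact two-sided permutation p = 0.3 with the arrays unpaired). Between arrays of equal number that value was −0.59, −0.73 and −0.36, of 1 sign in all 3 pairs, where an exact two-sided sign-flip test gave p = 0.25, the smallest that 3 pairs allow.

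The other PIP2 genes did not pass. PIP2D (AT3G54820) had the highest difference of the PIPs and the only one above 0. It read 7.57, 7.80 and 7.88 in *naa20* and 7.11, 7.01 and 7.94 in wildtype, a difference of 0.40 ± 0.24 (limma adjusted p = 0.264). Wildtype array 3 overlapped the *naa20* arrays, and without it the difference was 0.69 with an adjusted p of 0.0074. PIP2E (AT2G39010), known from leaf veins, had no overlap, at 10.07, 10.20 and 9.88 against 10.29, 10.36 and 10.51, and a difference of −0.34 with an adjusted p of 0.0583. Without *naa20* array 2 that p was 0.0461. PIP2F (AT5G60660) overlapped, with a difference of −0.21 and an adjusted p of 0.33.

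**Figure D2:**
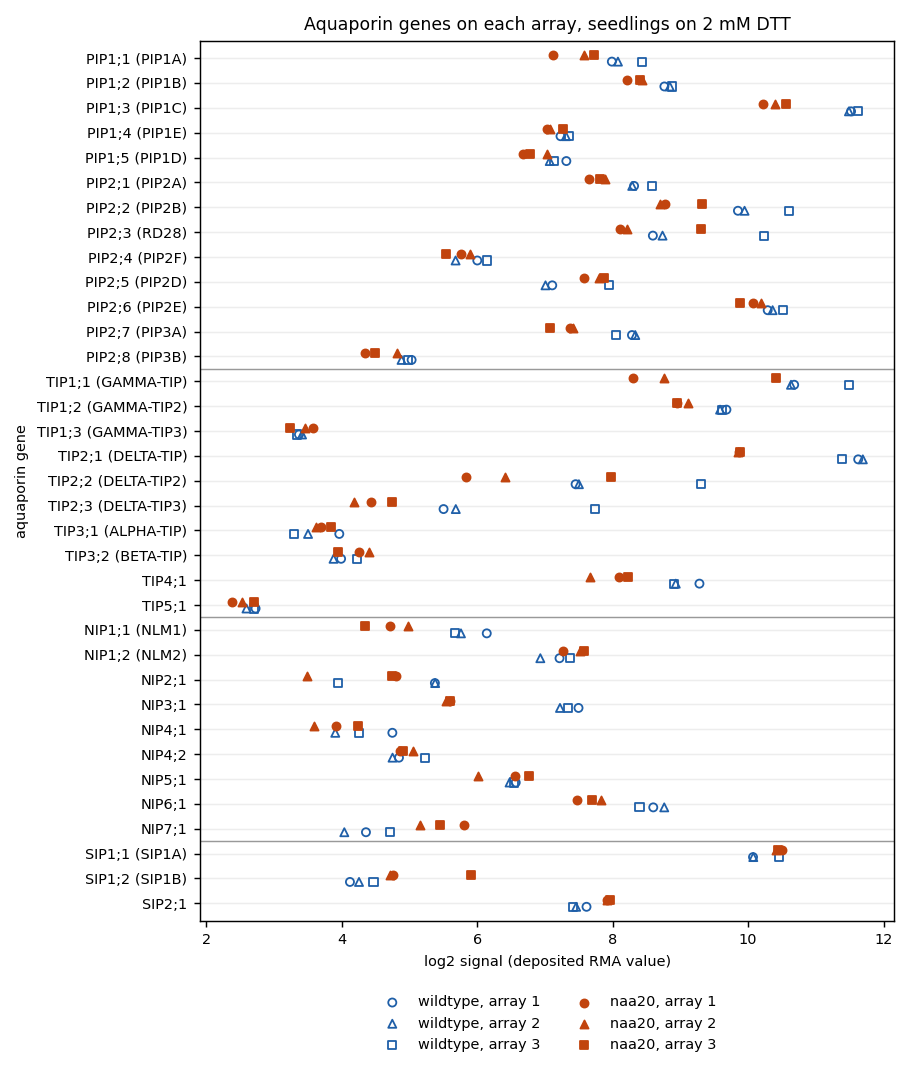
Log2 signal (horizontal axis) of each aquaporin gene on each array, with filled symbols for *naa20* and open symbols for wildtype and the symbol shape giving the array number. In DELTA-TIP and NIP3;1 the genotypes are far apart with little spread, while in RD28, GAMMA-TIP and DELTA-TIP2 array 3 of both genotypes lies above the others.

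Among the TIPs, 7 of 10 had a lower mean in *naa20*. The threshold was passed downwards by 5 (50%, against 17.4% of all probe sets) and upwards by none (against 16.6%). The median difference was −0.83, and 4 of the 5 genes were past 2-fold (40% of the TIPs, against 4.97% of all probe sets). The genes past the threshold were 2 of 3 in the TIP1 group, 2 of 3 in the TIP2 group and the single TIP4 gene. With the lowest 25% of signals left out, GAMMA-TIP3, ALPHA-TIP and TIP5;1 dropped from the list. The median of the TIPs that stayed was −1.35, while the difference of each of them was unchanged. With trended and robust moderation the calls of GAMMA-TIP and DELTA-TIP3, described below, were lost, at adjusted p-values of 0.0929 and 0.0697.

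The clearest difference of the subfamily was that of DELTA-TIP (TIP2;1, AT3G16240), a tonoplast channel that also carries ammonia. It read 9.86, 9.85 and 9.88 in *naa20* and 11.62, 11.69 and 11.38 in wildtype. The means of 9.86 ± 0.01 and 11.57 ± 0.16 (SD, n = 3 each) differed by −1.70 ± 0.10, 3.26-fold (limma adjusted p = 5.8e-05).

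TIP2;3 (DELTA-TIP3, AT5G47450), also an ammonia channel and known from roots, had the lowest difference of all aquaporins, −1.86 ± 0.56 or 3.63-fold (limma adjusted p = 0.0381). It read 4.43, 4.18 and 4.75 in *naa20* against 5.50, 5.68 and 7.74 in wildtype, and wildtype array 3 lay well above the other two. Without that array the difference was −1.14 (adjusted p = 0.0045). The call was lost without *naa20* array 1, 2 or 3, at adjusted p-values of 0.1, 0.11 and 0.0639.

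TIP2;2 (DELTA-TIP2, AT4G17340) had a wider spread, with an SD of 1.11 in *naa20* and 1.06 in wildtype (n = 3 each). Its arrays read 5.83, 6.41 and 7.98 in *naa20* and 7.45, 7.50 and 9.31 in wildtype, and *naa20* array 3 lay above the first and second wildtype arrays. The difference of −1.35 ± 0.67 had a limma adjusted p of 0.172. Between arrays of equal number it was −1.62, −1.09 and −1.33, and in a model blocked on replicate number the adjusted p was 0.00124. Without *naa20* array 3 the difference was −1.97 (adjusted p = 0.0455), and without wildtype array 3 it was −0.74 (adjusted p = 0.396).

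In the TIP1 group, GAMMA-TIP (TIP1;1, AT2G36830), the common tonoplast channel of vegetative cells, read 8.30, 8.75 and 10.41 in *naa20* and 10.68, 10.63 and 11.49 in wildtype. The genotypes did not overlap, and the means of 9.15 ± 1.11 and 10.94 ± 0.48 (SD, n = 3 each) differed by −1.78 ± 0.53, 3.44-fold (limma adjusted p = 0.0367). Array 3 of *naa20* was close to the wildtype arrays. Without it the difference was −2.41 (adjusted p = 0.0019), the only fit with 1 array left out that kept the call. Without *naa20* array 1 or 2 the adjusted p was 0.109 or 0.112, and without wildtype array 1, 2 or 3 it was 0.0715, 0.067 or 0.0996. GAMMA-TIP2 (TIP1;2, AT3G26520) had a smaller difference with little spread. It read 8.95, 9.11 and 8.96 against 9.68, 9.59 and 9.62, a difference of −0.62 ± 0.09 (limma adjusted p = 0.0016).

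TIP4;1 (AT2G25810), known from roots, was 2.06-fold lower. It read 8.10, 7.67 and 8.23 in *naa20* and 9.28, 8.93 and 8.90 in wildtype, a difference of −1.04 ± 0.17 with no overlap (limma adjusted p = 0.00347). Without *naa20* array 2 or wildtype array 1 the difference was −0.87 or −0.92, still past the adjusted threshold and short of 2-fold.

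The seed and pollen TIPs had low signals and overlapping arrays. BETA-TIP (AT1G17810), a channel of protein storage vacuoles in seeds, had the highest difference of the TIPs, at 4.25, 4.40 and 3.95 in *naa20* and 3.99, 3.88 and 4.22 in wildtype, or 0.17 (limma adjusted p = 0.427). The other seed TIP, ALPHA-TIP (AT1G73190), differed by 0.13 (adjusted p = 0.621). The pollen genes GAMMA-TIP3 (AT4G01470) and TIP5;1 (AT3G47440) differed by 0.06 (adjusted p = 0.751) and −0.14 (adjusted p = 0.374). Between 6.16% and 29.2% of all probe sets had a lower mean signal than these 4 genes. None of the 6 pollen markers passed the threshold in limma, and none had an unadjusted p under 0.05, with differences from −0.03 in STP11 to 0.25 in ANX1. Of 7 seed storage markers, 4 were higher in *naa20* past the threshold (57.1%, against 16.6% of all probe sets), with differences from −0.06 in EM1 to 0.84 in CRA1. Means over that list were 4.14 to 4.21 on the *naa20* arrays and 3.69 to 3.82 on the wildtype arrays.

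Among the NIPs, 7 of 9 had a lower mean, and the median difference was −0.39. The threshold was passed downwards by 3 (33.3%, against 17.4% of all probe sets) and upwards by 1 (11.1%, against 16.6%). NIP3;1 (AT1G31885), which is linked to arsenite transport in roots, had the lowest difference. It read 5.60, 5.55 and 5.60 in *naa20* and 7.50, 7.22 and 7.34 in wildtype. The means of 5.58 ± 0.03 and 7.35 ± 0.14 (SD, n = 3 each) differed by −1.77 ± 0.10, 3.41-fold, with the smallest adjusted p of all aquaporins (limma, 4.27e-05).

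NLM1 (NIP1;1, AT4G19030), through which arsenite can enter roots, read 4.72, 4.99 and 4.35 against 6.14, 5.76 and 5.68. It was lower by −1.17 ± 0.19, 2.26-fold and with no overlap (limma adjusted p = 0.00299). NLM2 (AT4G18910), the other member of the NIP1 group, lies on the same chromosome with 15 genes between them in RefSeq (TAIR10.1). It read 7.27, 7.51 and 7.58 in *naa20* and 7.22, 6.93 and 7.37 in wildtype, a difference of 0.28 with overlap (limma adjusted p = 0.181). The signal of NLM1 minus that of NLM2 ran from −3.22 to −2.53 in *naa20* and from −1.69 to −1.07 in wildtype, so the genotypes did not overlap. The differences of the pair differed by −1.45 (exact two-sided permutation p = 0.1, the smallest possible).

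The boric acid channels did not move as a group. NIP6;1 (AT1G80760), which passes boric acid to young shoot tissue, was lower, at 7.47, 7.83 and 7.70 against 8.60, 8.76 and 8.40, a difference of −0.92 ± 0.14 or 1.89-fold (limma adjusted p = 0.00196). NIP5;1 (AT4G10380), the boric acid channel of the root, overlapped, at 6.56, 6.02 and 6.77 against 6.57, 6.48 and 6.55, a difference of −0.08 (adjusted p = 0.782). NIP7;1 (AT3G06100), a boric acid channel known from anthers, was the only aquaporin higher by at least 2-fold. It read 5.80, 5.16 and 5.45 in *naa20* and 4.36, 4.04 and 4.72 in wildtype, a difference of 1.10 ± 0.22 or 2.14-fold (limma adjusted p = 0.00704). The lowest *naa20* array stood above the highest wildtype array. Without *naa20* array 1 or wildtype array 2 the difference was 0.93, short of 2-fold and past the adjusted threshold, and with the arrays centred on reference genes it was 0.97. Of 7 genes of the BOR family of boron exporters, 1 passed, BOR2 (AT3G62270), which was lower by −1.38 (14.3% of the list, against 17.4% of all probe sets lower). The highest difference of that list was 0.37, in AT3G06450.

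A further 3 NIP genes did not pass. NIP2;1 (AT2G34390), a lactic acid channel induced in roots short of oxygen, read 4.80, 3.49 and 4.74 in *naa20* and 5.38, 5.38 and 3.94 in wildtype, and 1 array in each genotype stood well below the others. Its difference was −0.55 ± 0.49 (limma adjusted p = 0.438). NIP4;1 (AT5G37810) and NIP4;2 (AT5G37820), direct neighbours in RefSeq that are known from pollen, differed by −0.39 (adjusted p = 0.279) and −0.004 (adjusted p = 0.986).

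All 3 SIPs had a higher mean in *naa20*, and the median difference was 0.43. The threshold was passed upwards by 1 (33.3%, against 16.6% of all probe sets). SIP2;1 (AT3G56950) passed the threshold, at 7.91, 7.91 and 7.96 against 7.61, 7.46 and 7.41, a difference of 0.43 ± 0.09 with no overlap (limma adjusted p = 0.00908). SIP1B (SIP1;2, AT5G18290) had the highest difference, 0.84 ± 0.31, at 4.75, 4.71 and 5.91 against 4.12, 4.26 and 4.47. It had no overlap and a limma adjusted p of 0.0794, which was 0.0258 in a model blocked on replicate number and 0.0412 without *naa20* array 3, where the difference was 0.45. SIP1A (AT3G04090) had the lowest difference, 0.25, at 10.50, 10.41 and 10.45 against 10.07, 10.08 and 10.45 (limma adjusted p = 0.165). Wildtype array 3 was at the level of the *naa20* arrays, and without it the adjusted p was 0.0239.

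Array 3 stood apart in a few aquaporins in both genotypes at once. The deviation from the genotype mean was over 0.3 on array 3 of both genotypes in 4 of 35 aquaporins (11.4%), against 440 of 27827 probe sets (1.58%), and these genes were singled out after their values were seen. On array 3 of *naa20* and of wildtype the deviations were 1.25 and 0.56 in GAMMA-TIP, 1.24 and 1.22 in DELTA-TIP2, 0.77 and 1.04 in RD28, and 0.39 and 0.47 in PIP2B. DELTA-TIP3 deviated by 0.30 and 1.43. No aquaporin lay below −0.3 on both, against 372 of 27827 probe sets (1.34%), a share too small to expect many among 35 genes. The pooled SD of DELTA-TIP2, DELTA-TIP3, GAMMA-TIP and RD28 was above that of at least 99.4% of all probe sets. The root endodermis markers had median deviations of 0.02 and −0.15 on the same arrays and the root hair markers 0.40 and −0.12, and their part in these deviations was not tested.

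**Figure D3:**
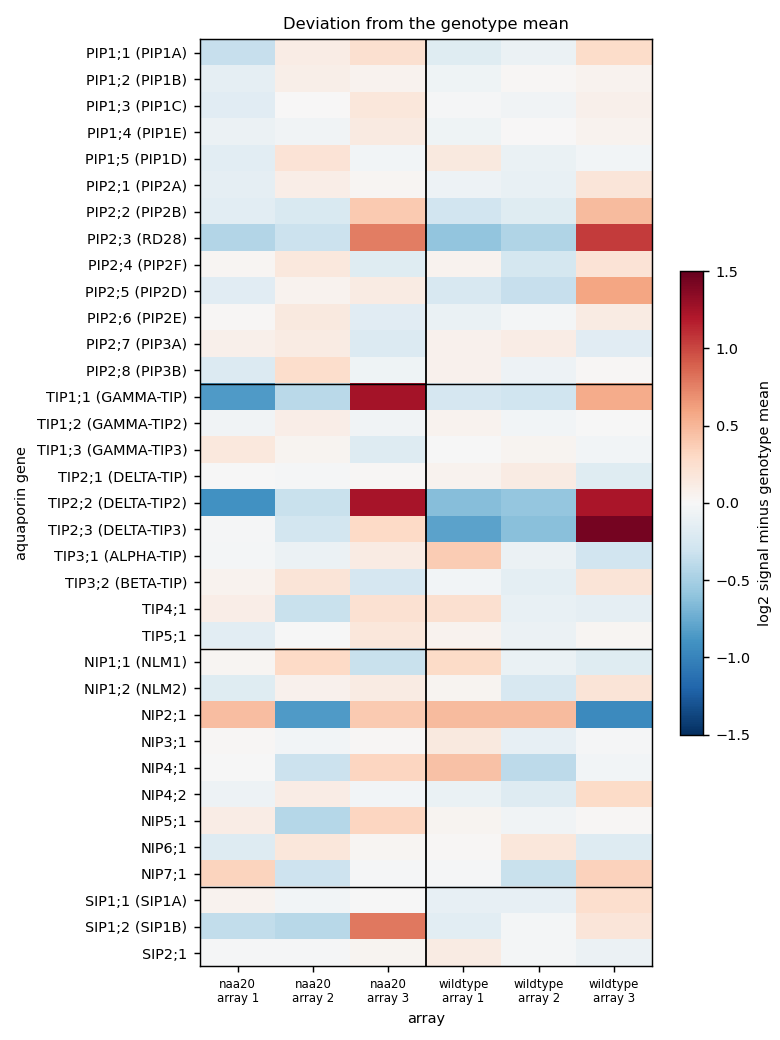
Deviation of each array's log2 signal from the mean of its genotype (colour), with aquaporin genes in rows and arrays in columns. Array 3 is high in both genotypes in GAMMA-TIP, DELTA-TIP2 and RD28, and in DELTA-TIP3 wildtype array 3 deviates by 1.43.

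Many aquaporins are expressed mainly in roots, so the lists of root markers stand beside the counts above. Over the whole table, 17.4% of probe sets were lower and 16.6% higher past the threshold. All 8 root endodermis markers were lower in *naa20*, with a median difference of −1.59 and extremes of −2.44 in PER64 and −0.43 in MYB36. Their mean signal was 4.94 to 4.97 on the *naa20* arrays and 6.37 to 6.72 on the wildtype arrays. All 6 root hair markers were lower, with a median of −3.03, from −5.27 in LRX1, a cell wall protein of root hairs, to −1.78 in RSL4, a regulator of root hair growth. Their mean was 4.22 to 4.89 against 7.56 to 7.82. Of 8 markers on a list that mixes genes of the root stele and of root uptake, 5 were lower and 1 higher, with a median of −1.12. They ran from −2.33 in the sodium transporter gene HKT1 to 1.16 in PHT1;4, a phosphate transporter gene, with means of 5.10 to 5.40 against 6.19 to 6.34. The other 2, SHR and SKOR, had overlapping arrays and differences of 0.01 (limma adjusted p = 0.958) and −0.33 (limma adjusted p = 0.403). Of 6 markers of photosynthetic leaf cells, 5 were lower, with a median of −0.61, from −0.96 in PSAD-1 to −0.29 in LHCA4, and with means of 12.01 to 12.14 against 12.61 to 12.64. The sixth gene of that list, RBCS1A, read 14.18 on every array, so it gave no measured difference, and it is included in the list's means and median. The part of these marker differences in the aquaporin differences was not tested.

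Genes that work beside the aquaporins went both ways, in a table where 17.4% of all probe sets were lower and 16.6% higher past the threshold. Of the 11 plasma membrane proton pump genes, which energise the membrane in which the PIPs sit, 3 were lower and 3 higher, with a median of −0.001, from −3.23 in AHA7 to 0.63 in AHA3. Of 12 other transporters and pumps of the tonoplast, 2 were lower and 3 higher, with a median of −0.07, from −0.61 in the sugar transporter gene TMT1 to 2.23 in CAX3, a calcium exchanger gene. Of 12 regulators of aquaporins, 1 was lower, the receptor kinase gene SIRK1 at −0.41, and 4 were higher, with XND1, a transcription factor gene, highest at 1.74. No difference between these lists and the aquaporins was tested.

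**Figure D4:**
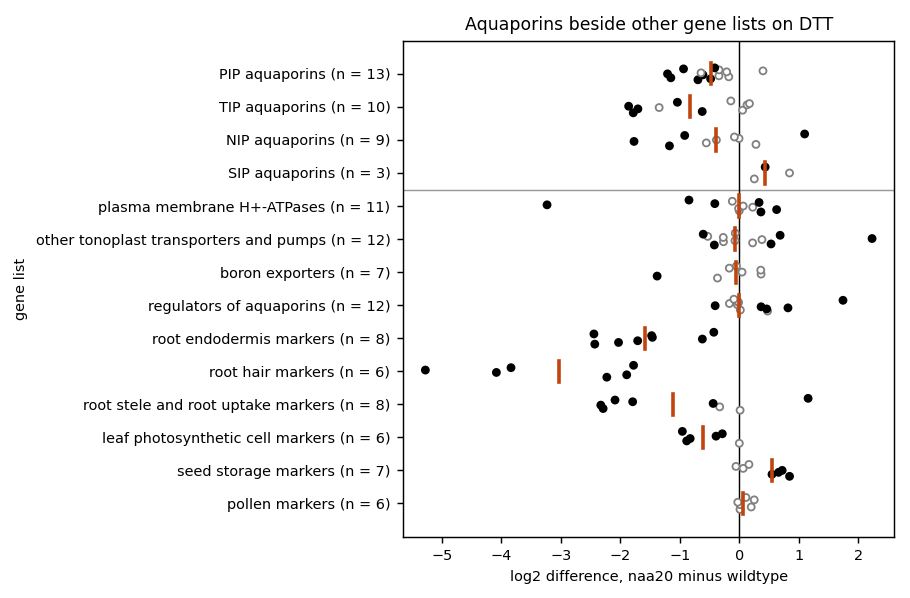
Log2 difference between *naa20* and wildtype (horizontal axis) for each gene of the aquaporin subfamilies and of the other gene lists, with filled points for an adjusted p under 0.05 and a coloured bar at each list's median. Medians run from −0.83 in the TIPs to 0.43 in the SIPs, beside −3.03 in root hair markers and −1.59 in root endodermis markers.

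The balance of calls depends on how the arrays are scaled. Centring every array on the mean of 9 reference genes, of which 2 passed the threshold upwards as deposited and whose differences ran from −0.09 in AT4G33380 to 0.32 in AT5G46630, lowered all differences by 0.129 and moved the median of the whole table to −0.13. Over the whole table, 4836 probe sets were lower and 4611 higher as deposited, and 6886 lower and 3332 higher after centring. Among the aquaporins 17 were then lower and 2 higher. The PIP median became −0.61 and the SIP median 0.31, both to be read against the −0.13 of the whole table.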

How the data were processed

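RNA of whole seedlings was hybridised to Affymetrix Arabidopsis Gene 1.0 ST arrays. The deposited values are log2 signals that the authors made with RMA background correction and quantile normalization, using a custom probe set definition based on TAIR loci, and the sorted values are identical on all 6 arrays. Whether arrays without DTT entered that normalization is not given in the sources used here. No genome build is named in the table, and scanner files were not used here. Of 27827 probe sets, 27241 matched a locus in RefSeq (TAIR10.1), which supplied gene names and neighbours only.

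All probe sets entered 1 linear model (limma 3.58.1, R 4.3.3) of genotype with moderated variances, and p-values were adjusted by the Benjamini-Hochberg method over the whole table. Thresholds were an adjusted p of 0.05 and, for the stricter count, a log2 difference of 1. Tables and plots were made with Python 3.11.15 and matplotlib 3.10.9. The steps were tested on simulated data with independent noise on each array and few changed genes. That setting lacks the many differences of these data and the deviations that array 3 shared between genotypes, so it cannot show how the steps behave with them. Exact permutation tests over arrays were two-sided. Members and lists were chosen with earlier results of these data known. All 35 members are accounted for, and values on every array are given for those past both thresholds and for the highest and lowest difference of each subfamily, with others added where a call changed or the arrays were informative. In other lists the genes with the highest and lowest difference are named.

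The labels give both genotypes the replicate numbers 1 to 3. Deviations from the genotype mean correlated between arrays of equal number at 0.176, 0.19 and 0.385 over probe sets. Array 1 of *naa20* with array 2 of wildtype gave 0.174 and the reverse 0.145, so the pairing of arrays 1 and 2 is not settled. The main model held no term for the replicate number. Blocked fits and differences between arrays of equal number take the labelled numbers as pairs. The alternatives were a block for the replicate number, trended and robust moderation, ordinary variances, array weights, removal of the lowest 25% of signals, centring on 9 reference genes and leaving out each array in turn. Leaving out array 3 of both genotypes was added after seeing the data.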

Additional observations from a re-analysis of the deposited data

How the results depend on the processing

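In a model blocked on replicate number, 16 aquaporins were lower and 3 higher, against 5118 lower and 4711 higher probe sets over the whole table. Beside RD28, PIP3B, DELTA-TIP2 and SIP1B, given above, the block changed no other aquaporin's call. Trended and robust moderation gave 13 lower, removal of the lowest 25% of signals 16 (32 aquaporins kept) and array weights 15. Over all probe sets in the fit, the lower counts were 4996, 4802 and 5346 in the same order. With ordinary variances 10 were lower, 5 of them by 2-fold, and 1 was higher, with 0 by 2-fold. Over the whole table that fit gave 3847 lower, 1245 of them by 2-fold, and 3736 higher, 1236 of them by 2-fold. NIP7;1 and PIP2B lost their calls there only, at adjusted p-values of 0.0539 and 0.059. After centring on reference genes 0 were higher by 2-fold, and the medians were −0.61 for the PIPs and 0.31 for the SIPs. Without array 3 of both genotypes, an alternative added after seeing the data, 16 were lower and 6 higher. Whole-table counts are not given for the fits with arrays left out, here and in the next sentence. Their aquaporin counts are therefore not read against a background. With 1 array left out at a time, 11 to 14 were lower, 6 to 8 of them by 2-fold, 2 to 4 were higher and 0 to 1 higher by 2-fold. The medians then ran from −0.52 to −0.41 (PIP), from −0.88 to −0.68 (TIP), from −0.55 to −0.13 (NIP, lowest in size without *naa20* array 2) and from 0.39 to 0.49 (SIP). The direction of no called aquaporin turned under any of these alternatives. The number of arrays, 3 per genotype, limits the precision.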
